A study of Xenopus tropicalis with 12 samples.

Results

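The 200 most abundant transcripts of control Xenopus tropicalis animal caps were followed through caps that received human Phf8 mRNA with or without loss of the SUV4-20H enzymes. Members were chosen by their measured level: the 200 of 34177 gene IDs with the highest mean CPM (the count of a gene over all gene counts of its library, scaled to the same total in each) over the 6 control libraries. In hRescue caps, which received human Phf8 mRNA together with translation-blocking morpholinos against suv4-20h1 and suv4-20h2, 62 of the 200 (31.0%) were lower and 4 (2.0%) were higher than in hPhf8 caps, which received the Phf8 mRNA alone. Of all genes tested, 17.2% were lower and 12.9% higher, and falls were about as frequent in the next 2 classes of abundance (30.1% and 31.1%) as among the members. The largest fall was that of tp63, the transcription factor of basal epidermal cells.

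The 12 libraries fall into hRescue, hPhf8, LacZ and CoMo caps, with 3 libraries each. LacZ caps received LacZ mRNA, which encodes a bacterial galactosidase, and CoMo caps received a standard control morpholino and no mRNA. These 6 libraries are called the controls. Per the study's methods, both cells of the embryo were injected, caps were dissected by hand from the resulting blastulae and raised to the neurula (stage 16), and each RNA sample was a pool of caps. hPhf8 replicate 2, which had the fewest counts and stood apart from its group, was left out of group values and of the main tests. Its values are given only where it is named, and not for every member where they differ. Nothing in the labels says whether the replicates came from separate clutches, so p-values measure only the spread between these samples.

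An animal cap is the prospective ectoderm of the blastula, and in isolation it forms a mucociliary epidermis of mucus-secreting, multiciliated, ion-transporting and basal cells. SUV4-20H enzymes add methyl groups to a lysine of histone H4 that already carries one. PHF8 is a demethylase whose substrates, per the study, include that singly methylated lysine and methylated lysines of histone H3. In any transcriptome a few highly expressed genes take a large part of the reads. In an epithelium these include genes for the cytoskeleton, cell junctions, secretion, RNA handling and protein synthesis. The counts here came from whole RNA depleted of ribosomal RNA and were not divided by transcript length, so a rank compares shares of read pairs and not numbers of molecules. A lower count in a bulk sample cannot be told apart between fewer cells of a type and less RNA per cell.

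Gene counts ran between 5258667 and 7444628 read pairs in hRescue, 10424713 and 14484963 in hPhf8 replicates 1 and 3, and 14361942 and 35584520 in the controls. hPhf8 replicate 2 had 2204210. Features without a gene ID took 53.9% to 60.9% of the counts in hRescue, 22.4% and 26.0% in hPhf8 replicates 1 and 3, and 16.6% to 31.6% in the controls, and they were left out of the totals. The morpholinos block translation, so the RNA level of their targets does not check the labels. The lowest count of any member in a library of the tests was 165 read pairs. No member had an antisense share above 0.776% in the controls. Summed CPM of 5 epidermis markers of the 8 listed (cdh1, epcam, tp63, tfap2a and xk81a1) ran between 3711 and 4602 in hRescue, 4184 and 4764 in hPhf8 replicates 1 and 3, and 4066 and 5105 in the controls, and these ranges overlapped. The markers in this sum did not move together: tp63 averaged 96.8 CPM in hRescue and 1013 CPM in hPhf8 replicates 1 and 3, xk81a1 237 and 459.7 CPM, tfap2a 295 and 402 CPM, cdh1 1323 and 1379 CPM, and epcam 2179 and 1221 CPM in the same groups. Summed CPM of 4 ionocyte markers of the 5 listed reached at most 318 in hRescue, against 739 and 790.0 in hPhf8 and 313 to 817 in the controls. The single endoderm marker with a match, sox17a, had 25.7 to 73.9 CPM in hRescue, 1.055 and 1.86 CPM in hPhf8, and 0.348 to 4.81 CPM in the controls. The part of these marker levels in the results was not tested.

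The files number the genes and do not name them. For 118 members, names came from the pairing of IDs and symbols in the study's own gene tables, and 82 members had no name there. These tables list genes by the study's tests, so naming is not even. Of the 36 members named in the table of hRescue against hPhf8, 3 were called higher and 32 lower in hRescue. Of the 82 named elsewhere, 0 were called higher and 22 lower. Some of these names came from tables of other comparisons with the same morpholinos, so this group is not free of selection. Of the 82 without a name, 1 was called higher and 8 lower. Counts over all 200 do not depend on the names, and counts over named groups do. Of all 6282 named IDs tested, 1412 were higher and 2042 lower, and of the 118 named members 3 were higher and 54 lower. Counts of a role list are to be read beside these. Falls over all named IDs on the lists for RNA binding and splicing (16 of 64) or desmosomes and keratins (4 of 15) were not more frequent. The lists were drawn up by symbol and do not hold every gene of a role.

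The members held 23.9%, 25.9% and 27.8% of the gene counts in hRescue, 29.7% and 27.7% in hPhf8 replicates 1 and 3, 31.8%, 31.0% and 32.1% in LacZ, and 30.4%, 28.4% and 30.7% in CoMo. The mean was 25.9% ± 1.96 in hRescue (SD, n = 3), 28.7% ± 1.39 in hPhf8 replicates 1 and 3 (SD, n = 2), 31.6% ± 0.581 in LacZ and 29.8% ± 1.27 in CoMo (SD, n = 3 each). All 3 hRescue libraries lay below all 6 controls, whose values chose the members, and the highest hRescue library lay just above the lower hPhf8 library. In hPhf8 replicate 2 the share was 34.3%, and 28.7% without the single transcript gene23575. With features that lack a gene ID in the total, the members held 11.1% in hRescue, 21.8% in hPhf8 replicates 1 and 3, 24.5% in LacZ and 22.1% in CoMo, so the size of the difference depends on the total used. Those features took their highest share in hRescue, and the reason was not tested.

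**Figure D1:**
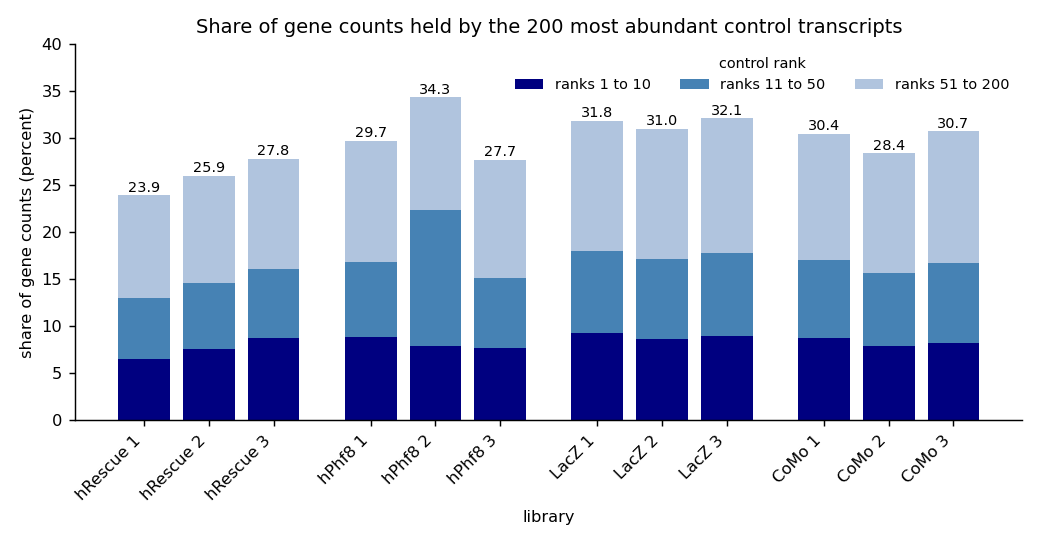
Share of gene counts (percent, vertical axis) held by the 200 members in each of the 12 libraries, split by control rank into ranks 1 to 10, 11 to 50 and 51 to 200. The hRescue bars end between 23.9% and 27.8%, the control bars between 28.4% and 32.1%, and hPhf8 replicate 2 stands highest at 34.3%.

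The difference extended beyond the top 10 and beyond the members. Ranks 1 to 10 held 7.56% ± 1.13 of the counts in hRescue, 8.22% ± 0.799 in hPhf8 replicates 1 and 3, and 8.61% ± 0.478 in the controls (SD, n = 3, 2 and 6), and the groups overlapped. Ranks 51 to 200 held 11.3% ± 0.431 in hRescue, 12.7% ± 0.239 in hPhf8 replicates 1 and 3, and 13.7% ± 0.56 in the controls. At these lower ranks the hRescue libraries (10.9% to 11.7%) did not overlap with either of the other sets (12.6% and 12.9% in hPhf8, 12.7% to 14.3% in the controls). Against hPhf8, the summed share of 132 members fell by 5.61 points of the counts in hRescue and that of 68 was higher by 2.79 points, a net difference of -2.82 points.

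Within the controls the members were steady. Their median coefficient of variation over the 6 libraries was 12.2%, beside 13.5% for the next 800 transcripts by control level and 16.6% for the 4000 after those. The steadiest was an unnamed transcript at 3.68%. The least steady was ugdh.2 at 45.5%, a UDP-glucose dehydrogenase gene, with 730, 266 and 762.0 CPM in LacZ and 750, 311 and 1011 CPM in CoMo. Replicate 2 was lowest in both groups. crocc2 and tsga10 were also lowest in replicate 2 of LacZ and of CoMo and had coefficients of 34.3% and 43.4%. At the edge of the choice, ugdh.2, an unnamed transcript and cd63 at ranks 198 to 200 had mean control levels of 638.3, 637.6 and 635.02 CPM, and the next ranks, hdgf and a pair of unnamed transcripts, had 633.9, 633.8 and 633.3 CPM.

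The transcript with the highest mean in hRescue, in hPhf8 replicates 1 and 3 and in the controls had no name. This transcript, gene8482, had 20922, 26763 and 31258 CPM in hRescue, 25638 and 20356 CPM in hPhf8 replicates 1 and 3, and a lowest, median and highest control value of 19907, 22092 and 24776 CPM. It alone took 2.63% of the gene counts in hRescue, 2.30% in hPhf8 replicates 1 and 3 and 2.23% in the controls, and the groups overlapped. The second, gene17253, also overlapped between groups. The third, gene19434, had 4360, 3459.9 and 5253 CPM in hRescue, 6037 and 7482 CPM in hPhf8, and 6807 to 10222 CPM in the controls. It was lower in hRescue than in hPhf8 with a log2 fold change of -0.77 (SE 0.252, adjusted p = 0.0466, edgeR's quasi-likelihood test with Benjamini-Hochberg adjustment), a call that was lost in 8 of 15 other fits.

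Named transcripts of the top 20 were actg1, gfpt1, ahnak, cirbp, otog, hmgn1, nr6a1, actb and LOC100488209. gfpt1, the entry enzyme of the hexosamine pathway that feeds glycoprotein synthesis, had 4674, 4905 and 5524 CPM in hRescue, 6188 and 5626 CPM in hPhf8, and 6734 to 8304 CPM in the controls. Every hRescue library lay below both hPhf8 libraries and these below every control, and the difference from hPhf8 did not pass the test (log2 fold change -0.38, adjusted p = 0.237, edgeR's quasi-likelihood test with Benjamini-Hochberg adjustment). ahnak, which encodes a giant scaffold protein of the cell cortex, had 4506, 1969 and 4292.1 CPM in hRescue, 5309 and 7156 CPM in hPhf8, and 5205 to 8525 CPM in the controls, with an adjusted p of 0.0678 in the same test. For cirbp, a cold-inducible RNA-binding protein, the values were 3345, 4146 and 4089.6 CPM in hRescue and 5601 and 5288 CPM in hPhf8, with an adjusted p of 0.0567. All 3 lay lower in each hRescue library than in each hPhf8 library without passing the threshold. otog, named for otogelin, a secreted glycoprotein related to gel-forming mucins, had 5703, 5162 and 5963 CPM in hRescue, 6059 and 4732 CPM in hPhf8, and 4660 to 6573 CPM in the controls, and its groups overlapped.

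The test between hRescue and hPhf8 used neither group to choose the members. Of the 200 members, 33.0% were called, beside 30.1% of the 17222 genes tested. In hRescue 4 members (2.0%) were higher, beside 12.9% of all genes, and 62 (31.0%) were lower, beside 17.2% of all genes (edgeR's quasi-likelihood test, adjusted p under 0.05). The median log2 fold change was -0.36 over the members and -0.02 over all genes tested, and 158 members had a negative value. So did 533 of the next 800 transcripts by control level and 8741 of all genes tested. A fold change of at least 2 among the called members was seen in 3 that were higher and 39 that were lower. With hPhf8 replicate 2 in the fit, 3.5% of the members were higher and 24.0% lower, beside 9.16% and 11.3% of all genes. Without hPhf8 replicate 1, which left a single hPhf8 library whose spread was taken from hRescue, 18.5% of the members were called (4 higher, 33 lower), beside 6.18% higher and 9.37% lower of all genes.

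The members were set against genes of lower control abundance in the same fit. In the next 800 transcripts by control level, 4.62% were higher and 30.1% lower in hRescue, with a median log2 fold change of -0.24. In the 4000 after those, 12.1% were higher and 31.1% lower, with a median of -0.21. Among the 12222 genes tested that were less abundant still, 13.9% were higher and 11.6% lower, with a median of 0.12. So the share of members that fell was close to that in both of the classes next to them, and the share that rose was the smallest of the 4 classes. Without hPhf8 replicate 1 the shares that rose were 2.0%, 1.88%, 6.53% and 6.4% from the most to the least abundant class, so the members were then no longer the lowest. The classes differ in counting precision as well as in level, and the part of that in these shares was not tested.

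**Figure D2:**
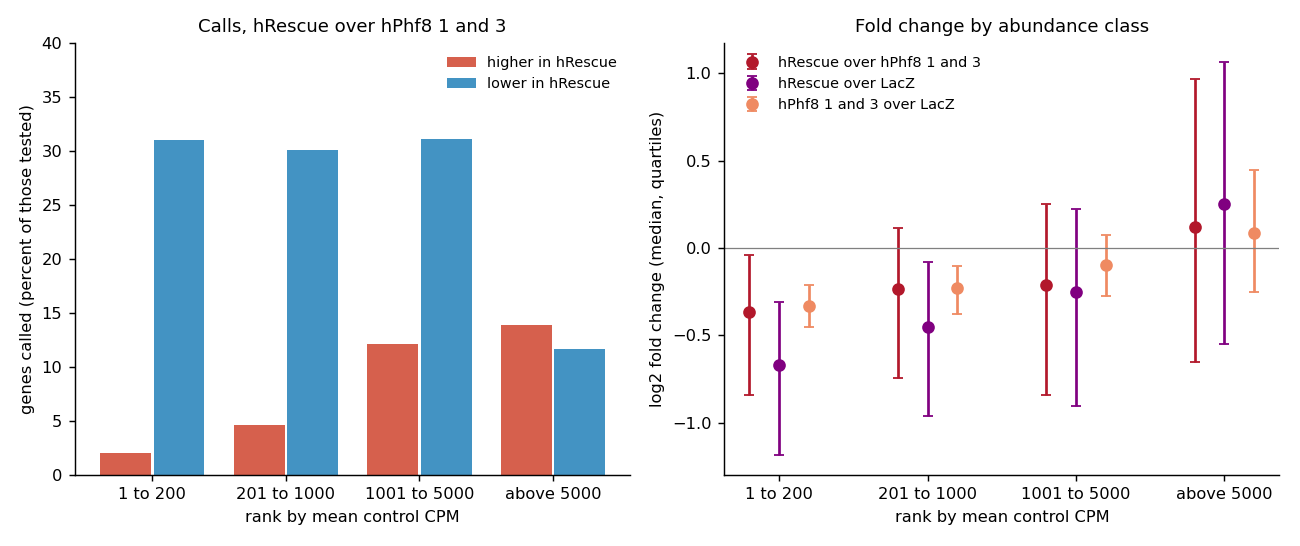
Left, genes called higher or lower in hRescue than in hPhf8 replicates 1 and 3, as a percent of those tested (vertical axis), by rank of mean control CPM. Right, median log2 fold change with quartiles (vertical axis) for 3 comparisons in the same classes, with the control ranks of the comparisons with LacZ taken from CoMo alone. Falls are near 31% in the first 3 classes of the left panel while rises go up from 2.0% to 13.9%, and all 3 medians lie lowest in ranks 1 to 200.

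The fold changes depend on how libraries are scaled. TMM factors, which assume that most genes do not differ, put the median of all genes at -0.02. With library size alone that median was 0.13 and the median of the members was -0.22. Then 12 members (6.0%) were called higher and 58 (29.0%) lower, beside 15.3% and 14.1% of all genes. With DESeq2 size factors the median of all genes was 0.04 and that of the members -0.31. In that fit 9 members were higher and 59 lower, beside 13.9% and 16.1% of all genes.

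All 4 members that rose are given here. gene23575, without a name, had 9921, 12600 and 8748 CPM in hRescue, 3081 and 2375 CPM in hPhf8 replicates 1 and 3, and 1668 to 4215 CPM in the controls, a log2 fold change of 1.78 over hPhf8 (SE 0.267, adjusted p = 0.00138, edgeR's quasi-likelihood test with Benjamini-Hochberg adjustment). In hPhf8 replicate 2 it had 78948 CPM, far above every other library, and with that library in the fit the fold change was -1.53 with an adjusted p of 0.364. cldn4, a claudin of tight junctions, had 2958, 4619 and 3526 CPM in hRescue, 1655 and 1229 CPM in hPhf8, and 1063 to 1449 CPM in the controls. Each hRescue library was above every other library, with a log2 fold change of 1.21 over hPhf8 (SE 0.276, adjusted p = 0.0103).

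The translation initiation factor gene eif4g2 had 2725, 2706 and 2494 CPM in hRescue, 1096 and 1382 CPM in hPhf8, and 1212 to 1571 CPM in the controls. Its log2 fold change was 0.95 (SE 0.196, adjusted p = 0.00632, edgeR's quasi-likelihood test with Benjamini-Hochberg adjustment). LOC105947280 had 1602, 1403 and 1196 CPM in hRescue, 579.9 and 584 CPM in hPhf8, and 482 to 820 CPM in the controls, with a log2 fold change of 1.11 (SE 0.189, adjusted p = 0.0025). For both genes the hRescue libraries did not overlap with any other. Leaving out hPhf8 replicate 1 ended the call of eif4g2 (0.86, adjusted p = 0.0621), and leaving out hPhf8 replicate 3 ended that of cldn4.

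**Figure D3:**
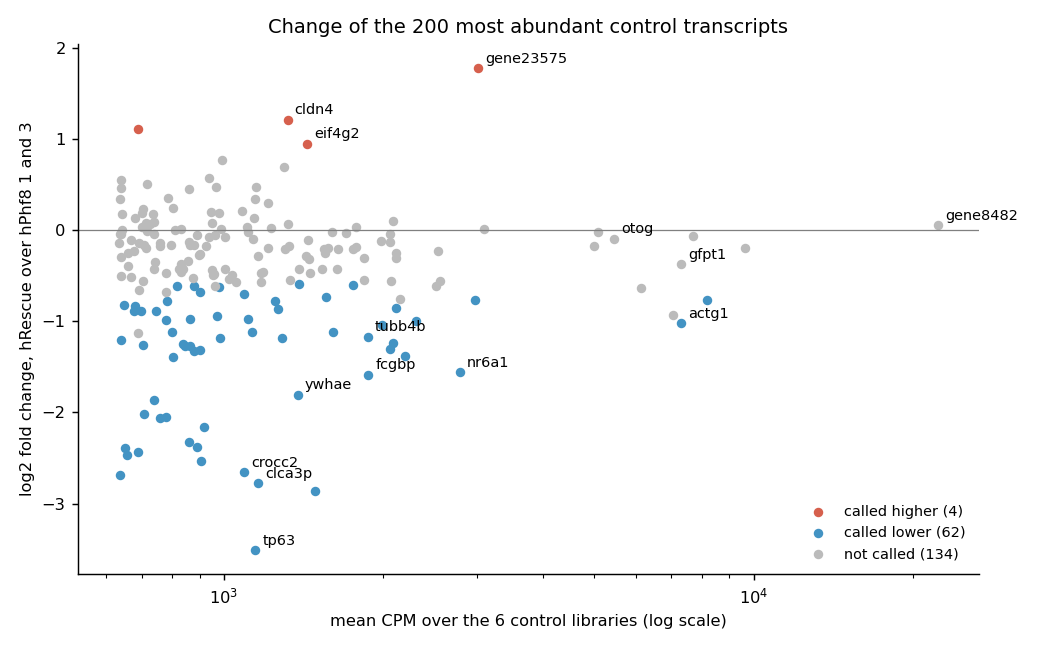
Log2 fold change of hRescue over hPhf8 replicates 1 and 3 (vertical axis) against mean control CPM (horizontal axis, log scale) for the 200 members, colored by call. The 62 members called lower spread over the whole range of abundance down to -3.51 for tp63, and the 4 called higher include gene23575 at 1.78.

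The 12 members with the lowest fold changes were tp63, LOC394967, clca3p, ugdh.2, crocc2, spata18, abcb5, capn8, tsga10, capn8.3, Xetrov90011073m.g and iqgap1-like.1. tp63 had 89.2, 60.6 and 141 CPM in hRescue, 843 and 1182 CPM in hPhf8, 931, 1227 and 1185 CPM in LacZ, and 949, 1122 and 1469 CPM in CoMo. The hRescue libraries lay far below all others, with a log2 fold change of -3.51 against hPhf8 (SE 0.349, adjusted p = 0.000309, edgeR's quasi-likelihood test with Benjamini-Hochberg adjustment). tp63 encodes the p63 factor that basal cells of stratified epithelia need. Its rank was 78 in the controls, 83 in hPhf8 and 2346 in hRescue.

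A pair of genes of this group is known from cilia or sperm tails. crocc2, related to the rootletin that anchors cilia, had 138, 109 and 227 CPM in hRescue, 1055 and 755 CPM in hPhf8, and 679.8 to 1563 CPM in the controls, with a log2 fold change of -2.66 (SE 0.338). tsga10, a testis gene whose protein is part of the sperm tail in mammals, had 135, 68.8 and 119 CPM in hRescue, 579.7 and 435 CPM in hPhf8, and 369.7 to 1008 CPM in the controls, with a log2 fold change of -2.39 (SE 0.287). Both had no overlap between hRescue and the other libraries. spata18, known in mammals for a role in mitochondrial quality control, had 189, 94.2 and 216 CPM in hRescue and 1029 and 712 CPM in hPhf8. The adjusted p of the 3 genes was 0.000661, 0.000543 and 0.000881 (edgeR's quasi-likelihood test with Benjamini-Hochberg adjustment). Summed CPM of 6 multiciliated cell markers of the 8 listed ran between 355 and 525 in hRescue, 1246 and 1496 in hPhf8, and 827 and 2036 in the controls, and their part in these falls was not tested.

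clca3p, abcb5 and ugdh.2 were also among the 12. clca3p, of a family of secreted chloride channel regulators, had 138, 89.3 and 244 CPM in hRescue, 907 and 1074 CPM in hPhf8, and 848 to 1456 CPM in the controls, with a log2 fold change of -2.78 (SE 0.381, adjusted p = 0.000888, edgeR's quasi-likelihood test with Benjamini-Hochberg adjustment). abcb5, an ATP-binding cassette transporter, had 96.3, 70 and 92.4 CPM in hRescue, 357 and 509.9 CPM in hPhf8, and 494 to 821 CPM in the controls, with a log2 fold change of -2.47 (SE 0.216, adjusted p = 0.000212). The hRescue and hPhf8 libraries did not overlap for either gene, and abcb5 in hPhf8 replicate 1 was below every control. ugdh.2, which supplies the sugar nucleotide for glycosaminoglycans, had 81.1, 31 and 131 CPM in hRescue and 487 and 469 CPM in hPhf8, with a log2 fold change of -2.69 (SE 0.469, adjusted p = 0.00281).

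A pair of calpain protease genes was in this group. capn8 had 166, 115 and 166 CPM in hRescue, 759.5 and 690 CPM in hPhf8, and 636 to 749 CPM in the controls, and its log2 fold change was -2.43 (SE 0.22). The coefficient of variation of capn8 over the controls was 5.48%. capn8.3 had 103.4, 120.4 and 184.5 CPM in hRescue and 722 and 562 CPM in hPhf8, and its log2 fold change was -2.38 (SE 0.294). LOC394967 and Xetrov90011073m.g, for which no role is given here, had log2 fold changes of -2.87 (SE 0.511) and -2.33 (SE 0.337). Each of the 12 kept its call in all 15 other fits, leaving out each library in turn among them.

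**Figure D4:**
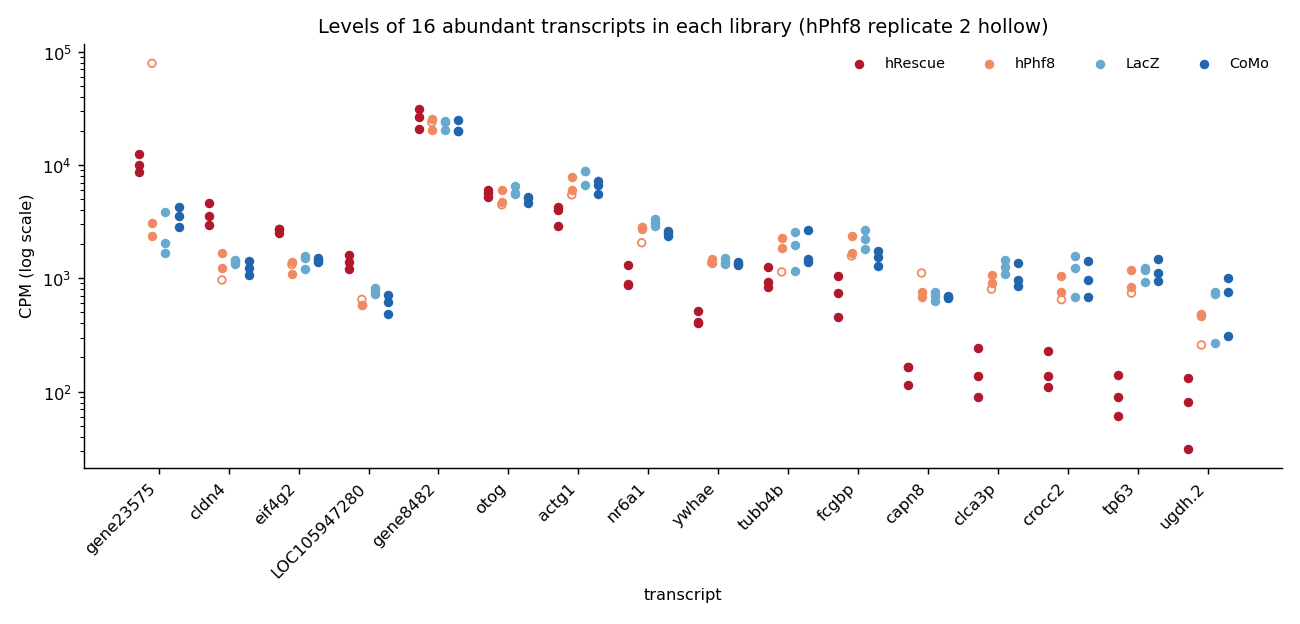
CPM (vertical axis, log scale) of 16 members in each library, with hRescue, hPhf8, LacZ and CoMo from left to right within each transcript and hPhf8 replicate 2 drawn hollow. The hRescue points lie above the others for gene23575 (leaving aside hPhf8 replicate 2), cldn4, eif4g2 and LOC105947280, and among the others for otog. For gene8482 they overlap the others and include the highest value. From actg1 rightwards they lie below the others except for tubb4b, where they overlap the lowest controls.

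Among the role lists, that of actin genes and their partners held the most falls. Of 9 members (actg1, actb, myh9, plec, flna, cnn1, iqgap1-like.1, tagln2 and actn1), 7 were lower and 0 higher in hRescue than in hPhf8, and the median log2 fold change was -1.04. Together they held 0.895% of the counts in hRescue, 1.66% in hPhf8 replicates 1 and 3, and 1.75% in the controls. actg1, a cytoplasmic actin, had 2920.1, 4039 and 4269 CPM in hRescue, 7790 and 6006 CPM in hPhf8, and 5536 to 8889 CPM in the controls, with a log2 fold change of -1.03 (SE 0.268, adjusted p = 0.0187, edgeR's quasi-likelihood test with Benjamini-Hochberg adjustment). No hRescue library overlapped with another group. The other cytoplasmic actin, actb, had 981, 1191 and 1431 CPM in hRescue and 2455 and 1898 CPM in hPhf8, with a log2 fold change of -1.001 (SE 0.252, adjusted p = 0.0162). iqgap1-like.1, a scaffold between the cell cortex and small GTPases, had 208, 157 and 278 CPM in hRescue and 929 and 813 CPM in hPhf8, with a log2 fold change of -2.16 (SE 0.267, adjusted p = 0.000608). Without hPhf8 replicate 1, 4 of the 9 were lower and both actins lost the call, at -0.75 and -0.73. Over all named IDs of the list beyond the members too, 21 of the 42 tested were lower and 3 higher, and 4 of the 9 members are in the study's gene table for this comparison. Named members on no list fell as well. Of these 38, 25 were lower and 1 higher, with a median of -1.17. Of the 20 among them outside that table, 8 were lower and 0 higher. Over all 5414 named IDs on no list that were tested, 1731 were lower and 1246 higher.

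Of 7 members listed as epidermal and ectodermal transcription factors, 5 were lower and 0 higher, with a median of -1.12. The list was drawn up by symbol and holds nr6a1, arid3a, esrp1, gata2, trim29, tp63 and klf6. Its name does not hold for every gene, as esrp1 is an epithelial splicing regulator and no transcription factor. nr6a1, an orphan nuclear receptor of early embryos, had 873, 896 and 1319 CPM in hRescue, 2807 and 2724 CPM in hPhf8, and 2345 to 3333 CPM in the controls. It fell out of the top 20, to rank 77 in hRescue against rank 15 in the controls, with a log2 fold change of -1.56 (SE 0.255, adjusted p = 0.00206, edgeR's quasi-likelihood test with Benjamini-Hochberg adjustment). The highest fold change among the called members of the list was that of arid3a at -0.86. Over all 66 named IDs of the list, 21 were higher and 18 lower. Of the 7 members, 3 are in the study's gene table for this comparison.

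Among 10 members on the list for cell junctions other than desmosomes, 1 was higher, cldn4, and 2 were lower. The list was drawn up by symbol and also holds emp2 and cd63, so its name need not hold for every gene. Over all 51 named IDs of the list that were tested, 12 were higher and 16 lower, with a median of -0.34. arvcf, a catenin that binds cadherins, had 424, 369 and 468 CPM in hRescue and 807 and 696 CPM in hPhf8, with a log2 fold change of -0.99 (adjusted p = 0.00619, edgeR's quasi-likelihood test with Benjamini-Hochberg adjustment), and an adjusted p of 0.0521 without hPhf8 replicate 1. The adhesion molecule gene alcam changed by -0.62 (adjusted p = 0.0468), a call lost in 11 of 15 other fits. emp2, the most abundant of the list, had a log2 fold change of -0.76 and an adjusted p of 0.066. Values of cdh1 and epcam, the epithelial cadherin and adhesion molecule, were -0.21 and 0.69 and did not pass the test. With library size alone 3 of the 10 were higher and 1 was lower.

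Desmosome genes, tubulin and mucus genes had few members. ppl, for the desmosomal plakin periplakin, had 565, 413 and 795 CPM in hRescue and 1354 and 1094 CPM in hPhf8, with a log2 fold change of -1.19 (adjusted p = 0.0149, edgeR's quasi-likelihood test with Benjamini-Hochberg adjustment), while its partner evpl (-0.26) and dsc3 (-0.52) were not called. tubb4b, a tubulin of cilia and other microtubules, was the only member of its list, with 928, 831 and 1253 CPM in hRescue, 2259 and 1844 CPM in hPhf8, and 1159 to 2660 CPM in the controls. It was lower than in hPhf8 by a log2 fold change of -1.17 (SE 0.253, adjusted p = 0.00784), and overlapped with the lowest controls. The tubulin and cilium list was drawn up by symbol and leaves out crocc2 (-2.66) and tsga10 (-2.39). Both of these kept their calls in all 15 other fits. Of 4 mucus and secretion genes, fcgbp was lower with 740, 451 and 1042 CPM in hRescue, 2382 and 1669 CPM in hPhf8, and 1284 to 2645 CPM in the controls, at a log2 fold change of -1.59 (SE 0.35, adjusted p = 0.00878). otog, msln-like.2 and muc4 were not called, at -0.10, 0.01 and 0.47. Beyond the members too, 10 of the 26 named mucus and secretion IDs tested were lower and 3 higher. In the list of desmosomes and keratins 4 of 15 were lower and 0 higher. The tubulin and cilium list had 63 of 74 lower and 2 higher, with a median of -1.86. Of its 36 IDs outside the study's gene table for this comparison, 25 were lower and 2 higher. These are not free of selection, as some, tubb4b among them, were named in the study's tables of other comparisons with the same morpholinos. Without hPhf8 replicate 1 the calls of ppl, tubb4b and fcgbp were lost, at -0.96, -0.95 and -1.23.

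Further groups hold genes for RNA and protein handling. Of 13 members on the list for RNA binding and splicing, 4 were lower and 0 higher, with a median of -0.43. That list was drawn up by symbol and leaves out genes such as cirbp (-0.64, not called) and esrp1 (-1.24, called lower). hnrnph3, a nuclear ribonucleoprotein of splicing, had 513, 476 and 484 CPM in hRescue and 1025 and 994 CPM in hPhf8, with a log2 fold change of -1.19 (SE 0.172, adjusted p = 0.00114, edgeR's quasi-likelihood test with Benjamini-Hochberg adjustment). The helicase gene ddx5 was lower by less, at -0.59, a call lost in 10 of 15 other fits. hnrnpa3, another nuclear ribonucleoprotein gene, had 610, 602.5 and 645 CPM in hRescue and 936 and 849 CPM in hPhf8, at -0.68, a call lost in 6 of 15. hnrnpa1, the most abundant of the list, had -0.56 with an adjusted p of 0.0739. Over all 64 named IDs of the list, 12 were higher and 16 lower, with a median of -0.16. Of 7 genes of the endoplasmic reticulum and secretory pathway, 1 was lower, tm9sf2 at -0.98, and the median was 0.09. Over all 82 named IDs of this list that were tested, 18 were higher and 12 lower, with a median of 0.15. calr, a calcium-binding chaperone of that compartment and the most abundant of the list, had 1573, 2503 and 2558 CPM in hRescue and 1739.9 and 2044 CPM in hPhf8, with overlap. Without hPhf8 replicate 1, 2 of the 13 and 0 of the 7 were lower.

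Of 9 chromatin genes, 2 were lower: hmgn1, a nucleosome-binding protein, at -0.77, and ptma, which encodes prothymosin alpha, at -0.78. Both calls were lost without hPhf8 replicate 1. Over all 49 named IDs of the list that were tested, 11 were higher and 13 lower, with a median of -0.17. Of 3 translation factors, eif4g2 was higher, while eef1a1 (-0.28) and eif5 (0.50) were not called. Among all 22 named IDs of this list, 6 were higher and 2 lower. Of 3 genes for 14-3-3 adaptor proteins, ywhae was lower with 405, 415 and 518 CPM in hRescue, 1480 and 1353 CPM in hPhf8, and 1319 to 1514 CPM in the controls. Its log2 fold change was -1.81 (SE 0.213, adjusted p = 0.000523, edgeR's quasi-likelihood test with Benjamini-Hochberg adjustment), and its coefficient of variation over the controls was 5.26%. ywhaq, the more abundant of this family, was not called at -0.21, nor was ywhab at -0.51. Among all 5 named IDs of the family, 2 were lower and 0 higher. The polyubiquitin gene ubc fell by 0.94 on the log2 scale, with an adjusted p of 0.0141, and of 0.0811 without hPhf8 replicate 1. Of 7 pumps and transporters, abcb5 and the mitochondrial carrier slc25a1 (-1.33) were lower, and the calcium pump gene atp2a2 was not called at -0.32. Over all 204 named IDs of that list that were tested, 26 were higher and 85 lower, with a median of -0.60. No ribosomal protein, energy metabolism or immediate early gene with a name was among the members.

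Of the 82 unnamed members, 1 was higher and 8 were lower, with a median of -0.15. Over all 10940 unnamed IDs tested, 807 were higher and 925 lower, with a median of 0.04. Among the unnamed members the lowest were gene5723 at -0.82 and gene26882 at -0.78. The highest after gene23575 was gene2249, with 1259, 1619 and 2019.5 CPM in hRescue, 959 and 786 CPM in hPhf8, and 787 to 1130 CPM in the controls, at a log2 fold change of 0.76 and an adjusted p of 0.0621 (edgeR's quasi-likelihood test with Benjamini-Hochberg adjustment).

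hRescue was also compared with LacZ caps, which received LacZ mRNA in place of Phf8 mRNA and did not receive the morpholinos of hRescue. The groups therefore differ in the mRNA as well as in the morpholinos, and their comparison cannot separate these treatments. To keep the LacZ libraries out of the choice, the 200 genes of highest mean CPM in CoMo alone were counted, of which 188 are members. Same-numbered LacZ and CoMo libraries deviated together (correlations across genes of 0.76, 0.64 and 0.38), so the choice was not wholly separate from LacZ. Of these 200, 64.0% were called, beside 39.1% of the 17044 genes tested. In hRescue 4 (2.0%) were higher, beside 18.4% of all genes, and 124 (62.0%) were lower, beside 20.6% (edgeR's quasi-likelihood test, adjusted p under 0.05). The shares higher and lower were 5.0% and 47.9% in the next 800 and 14.5% and 36.3% in the 4000 after those. In the rest they were 20.9% and 12.9%. The median log2 fold change of the 200 was -0.67, beside 0.03 over all genes. It was -0.45 in the next 800, -0.25 in the 4000 after those and 0.25 in the rest. With library size alone the median of all genes was 0.36 and that of the 200 was -0.34. In that fit 17 of the 200 were higher and 86 lower, beside 27.5% and 14.1% of all genes.

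The 4 that rose against LacZ were gene23575 (1.75), cldn4 (1.07), eif4g2 (0.56) and slbp (0.71), the last of which is no member and binds histone mRNA. Members that had not passed the test against hPhf8 were lower here, among them gfpt1 (-0.97, adjusted p = 0.00342), cirbp (-1.005, adjusted p = 0.00277) and ahnak (-1.29, adjusted p = 0.0132, edgeR's quasi-likelihood test with Benjamini-Hochberg adjustment). All 8 genes of the epidermal transcription factor list and all 9 of the actin list in this choice were lower, with medians of -1.62 and -1.43. tp63 was lower by 3.84 on the log2 scale. otog was not called at -0.41. This comparison and the one with hPhf8 share the hRescue libraries, so they are not independent.

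hPhf8 replicates 1 and 3 were set against LacZ with the same 200 genes chosen on CoMo. None was called, as was the case for all 18150 genes tested (0.0% called by edgeR's quasi-likelihood test without a replicate block). At an unadjusted p under 0.05 there were 47 of the 200 (23.5%), 118 of the next 800 and 1272 of all genes (7.01%). DESeq2 called 3 of the 200, all lower, beside 70 of all genes, and these were hipk1 (-0.83), unc5b (-0.90) and abcb5 (-0.89), named after their values were seen. The median log2 fold change of the 200 was -0.33, beside -0.01 over all genes, -0.23 in the next 800 and -0.10 in the 4000 after those. Negative values were found for 196 of the 200, 716 of the next 800, 2608 of the 4000 after those and 9176 of all genes. With library size alone the median of the 200 was -0.13 and that of all genes 0.19.

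The control groups also differed from each other. LacZ itself lay above CoMo for 164 of the 200 genes chosen on CoMo, with a median log2 difference of 0.17, given as a description because CoMo chose them. Against all 6 controls, the members had a median log2 fold change of -0.59 in hRescue, with 181 negative, and of -0.26 in hPhf8 replicates 1 and 3, with 195 negative. Of the next 800 by control level, 623 and 712 were negative in the same groups. These values carry no test, since the controls chose the members.

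The rank order of the members held in hPhf8 and loosened in hRescue. Of the 200, 139 were among the 200 most abundant transcripts of hRescue by mean CPM, and 182 among those of hPhf8 replicates 1 and 3. In hRescue 23 members stood below rank 500 and 13 below rank 1000, the lowest being ugdh.2 at rank 2728. In hPhf8 none stood below rank 500, and the lowest was abcb5 at rank 337. Across the 200 members Spearman's rho with the mean of the controls was 0.68 for the hRescue mean and 0.95 for the hPhf8 mean, a correlation across genes, which are not replicates. For single libraries it was 0.64 to 0.72 in hRescue, 0.92 and 0.93 in hPhf8 replicates 1 and 3, and 0.79 in hPhf8 replicate 2. Each control was set against the mean of the other controls, with 0.86 to 0.93. The control values also chose the members. A single control library had 177 to 184 of the members among its own 200 most abundant, beside 133 to 146 in an hRescue library and 176 and 177 in hPhf8 replicates 1 and 3.

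**Figure D5:**
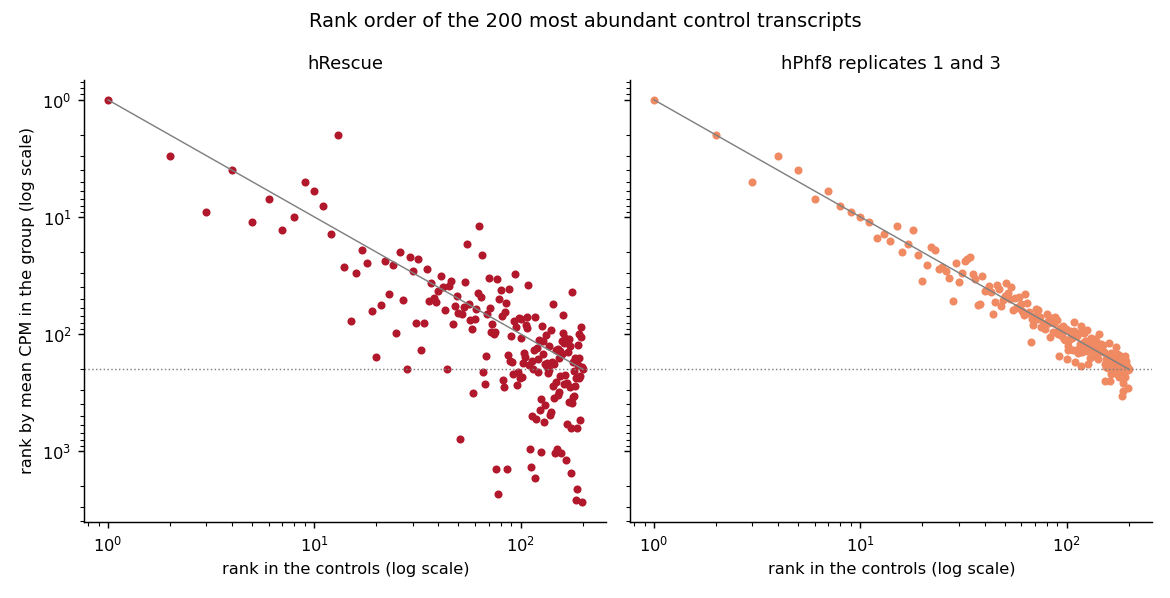
Rank by mean CPM of the 200 members in hRescue (left) and in hPhf8 replicates 1 and 3 (right, vertical axes, log scale, most abundant at the top) against their rank in the controls (horizontal axes, log scale). The line marks equal ranks and the dotted line rank 200. In hRescue 13 members lie below rank 1000, and in hPhf8 the lowest lies at rank 337.

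The places left by members were taken by 61 other transcripts in hRescue. Of these, 44 stood within rank 500 in the controls and 10 below rank 1000. Against hPhf8, 31 of the 61 were called higher in hRescue and 0 lower, beside 12.9% and 17.2% of all genes. The highest of the 61 was srsf5, a splicing factor gene, at rank 15 in hRescue with a mean of 2693 CPM. It had 615 CPM in hPhf8 replicates 1 and 3 and 589 CPM in the controls. LOC100498107 and satpa followed at ranks 16 and 18, with means of 2645 and 2610 CPM in hRescue, 109 and 72.5 CPM in hPhf8, and 147 and 125 CPM in the controls. plk2, a stress-responsive kinase gene, stood at rank 79 with 1007 CPM in hRescue, 72.4 CPM in hPhf8 and 58.5 CPM in the controls. These genes were picked for their rank in hRescue, which favours calls of higher. Their levels and the count of calls are therefore a description and no test.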

How the data were processed

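The authors deposited raw counts of read pairs per gene for each library, made with STAR 2.7.1a (GeneCounts) on the X. tropicalis genome v9.1 with Xenbase gene models, without normalisation. The reverse-strand column was used as sense. The 4 summary rows and the entry of features without a gene ID were left out, and CPM was computed over the 34177 gene IDs. Members are the 200 IDs of highest mean CPM in CoMo and LacZ. They and the symbol-based lists were chosen with earlier results of these data known. Each comparison was fitted on its own libraries with edgeR 4.0.16 in R 4.3.3 (glmQLFit and glmQLFTest, TMM), without covariates, on genes with at least 1 read in 75% of libraries. Benjamini-Hochberg adjustment ran over all genes tested, and calls were made at 0.05. DESeq2 1.42.0, other scalings and filters, unstranded counts, a replicate block and libraries left out were alternatives. The test was checked on simulated data. The text names the 20 most abundant members, the 12 highest and 12 lowest called members without overlap, each list's most abundant and extreme called members, and those at the edge. Only 4 called members rose, so the other 8 of the 12 highest are the smallest falls. Unnamed IDs are given for the 3 most abundant, 2 highest and 2 lowest, and others that the rule takes are only counted. Same-numbered hRescue and LacZ libraries deviated together (correlations of 0.28, 0.54 and 0.38). The values given are without the block, which was an alternative. Alternatives listed after seeing the data were the replicate block with hPhf8 replicate 2, members chosen without each control, and members without the 10 most abundant or gene23575. Gene names came from the study's tables, and 3 were updated from RefSeq by gene ID.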

Additional observations from a re-analysis of the deposited data

Results flagged for a closer look

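The library of hPhf8 replicate 2 entered alternative fits but no main comparison. Its share of gene counts held by the members was 34.3%, above the range of the 6 controls (28.4% to 32.1%) and of the other hPhf8 libraries (27.7% and 29.7%). Without gene23575, at 78948 CPM in that library, the share was 28.7%. This library also had 2204210 gene counts, 36.0% multimapping and 31.1% unmapped read pairs, and an antisense share of 23.5% over all genes, and their part in the share was not tested. Of 21 checks for a lone sample far from the others in the 6 controls, 0 were positive.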

How the results depend on the processing

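The share of members called between hRescue and hPhf8 ranged from 18.5% to 37.0% over fits that left out 1 library, lowest without hPhf8 replicate 1, and stayed within 1.5 times the reported 33.0% in the other alternatives. It was 25.5% with a replicate block (27.6% of all genes) and 23.5% with that block and hPhf8 replicate 2 (17.9% of all genes). Without hPhf8 replicate 2, hRescue replicate 2 stood alone in its block, which left little to estimate the spread. Only 2 hPhf8 libraries enter the correlations, and their deviations mirror each other. The correlations of 0.07 and -0.07 therefore cannot show whether same-numbered libraries of these groups share an origin. Against LacZ the share called was 49.5% to 67.5% over libraries left out (28.2% to 38.9% of all genes). It was 68.5% with the replicate block (45.7% of all genes), which kept all 128 calls and added 9. Between hPhf8 and LacZ it was 1.5% with DESeq2 (0.386% of all genes) and 24.0% (48 lower) with a replicate block, which called 14.5% of all genes (1278 higher, 1346 lower). In that fit LacZ replicate 2 stood alone in its block, which left little to estimate the spread. Its calls are therefore to be read with caution. The deviations of the 2 hPhf8 libraries mirror each other here too. The correlations of 0.53 and -0.04 between same-numbered libraries therefore cannot show whether these share an origin. The cause of the difference between the fits was not tested. With features that lack a gene ID in the total, the members held 11.1% in hRescue, 21.8% in hPhf8, 24.5% in LacZ and 22.1% in CoMo. Without the 10 most abundant they held 18.3%, 20.5%, 22.7% and 21.6% in the same groups, since fewer genes are summed. Leaving out 1 library gave shares of 24.9% to 26.9% in hRescue, 27.7% to 29.7% in hPhf8, 31.4% to 32.0% in LacZ and 29.4% to 30.6% in CoMo. For the 41 called members that the naming rule takes, 506 of 615 further fits kept direction and call, and the rest kept the direction alone except 1 that was reversed, gene23575 at -1.53 with hPhf8 replicate 2. The low depth of that library, 2204210 gene counts, limits what it can show.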
